A study of Mus musculus with 17 samples.

Results

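A set of 10 genes that mark or control blood stem and progenitor cells was followed by symbol through the counts of leukaemic bone marrow: Cd34, Ly6a, Cd48, Myb, Cdk6, Erg, Mecom, Runx1, Lmo2 and Bmi1. They are 10 of the 56305 gene identifiers in the deposited tables, and each symbol matched 1 identifier in both tables. In GENCODE vM21 (GRCm38) all 10 are protein-coding: Cd34 and Cd48 lie on chromosome 1, Bmi1 and Lmo2 on 2, Mecom on 3, Cdk6 on 5, Myb on 10, Ly6a on 15, and Erg and Runx1 on 16. All libraries were made from bone marrow with acute myeloid leukaemia (AML) of mice on the C57BL/6 background, and all carried the genotype Dnmt3aR878H/+;Npm1cA/+. The 9 Mt1ko libraries came from leukaemia with a CRISPR-Cas9 knockdown of Mt1, the gene of a metal-binding metallothionein (summed samples 4-6, 10-12 and 16-18). The 8 control libraries carried the same 2 alleles (summed samples 1-3, 7-9 and 14-15). The labels give neither age nor guide. They call every library a technical replicate and do not say how many mice stand behind the 6 sums, so p-values cover the spread between sums only, which may be technical.

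Blood stem cells and early progenitors are held undifferentiated by a set of transcription factors that bind regulatory DNA together, among them ERG and RUNX1, with LMO2 as a bridging protein that binds no DNA itself. MECOM maintains stem cells, MYB drives progenitor growth, CDK6 lets cells leave quiescence, and BMI1 represses cell cycle inhibitors as part of Polycomb complex 1. CD34, LY6A (known as Sca-1) and CD48 are surface proteins by which mouse progenitors are sorted. In human AML with cytoplasmic nucleophosmin, CD34 is often low. Mouse mast cells also carry CD34.

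Promoter sequence is printed for 6 members that mark the poles of the pattern described further on: Cd34, Mecom and Runx1 on one pole, and Cd48, Cdk6 and Bmi1 on the other. The windows run from 250 bases before to 50 bases after a RefSeq transcription start (build GRCm38.p6), 5′ to 3′ on the gene's strand, so that only the last 50 bases are transcribed. Capitals mark matches, on either strand, to 4 motifs: AGATAA for GATA factors, CCGGAA for ETS factors, TGTGGT for RUNX factors, and CAACTG or AACGG for MYB.
Cd34 (chr1:194938571-194938870, plus strand): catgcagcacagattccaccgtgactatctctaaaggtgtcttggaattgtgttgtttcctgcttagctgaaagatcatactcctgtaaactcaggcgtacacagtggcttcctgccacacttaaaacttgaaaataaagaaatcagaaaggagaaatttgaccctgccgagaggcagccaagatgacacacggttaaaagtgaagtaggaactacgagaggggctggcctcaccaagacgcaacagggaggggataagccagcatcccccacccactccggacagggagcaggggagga
Mecom, first window (chr3:30509710-30510009, minus strand): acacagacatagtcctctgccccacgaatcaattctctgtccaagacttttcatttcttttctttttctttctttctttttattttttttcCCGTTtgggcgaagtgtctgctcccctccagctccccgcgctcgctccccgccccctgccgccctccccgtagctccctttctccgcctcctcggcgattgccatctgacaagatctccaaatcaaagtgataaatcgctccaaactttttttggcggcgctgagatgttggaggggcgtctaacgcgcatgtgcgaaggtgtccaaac
Runx1, first window (chr16:92826025-92826324, minus strand): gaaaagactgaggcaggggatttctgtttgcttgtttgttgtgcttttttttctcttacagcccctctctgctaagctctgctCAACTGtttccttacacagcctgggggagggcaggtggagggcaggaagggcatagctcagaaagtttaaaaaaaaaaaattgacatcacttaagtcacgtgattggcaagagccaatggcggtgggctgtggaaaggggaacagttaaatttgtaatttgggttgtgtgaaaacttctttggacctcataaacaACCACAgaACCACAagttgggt
Cd48 (chr1:171681742-171682041, plus strand): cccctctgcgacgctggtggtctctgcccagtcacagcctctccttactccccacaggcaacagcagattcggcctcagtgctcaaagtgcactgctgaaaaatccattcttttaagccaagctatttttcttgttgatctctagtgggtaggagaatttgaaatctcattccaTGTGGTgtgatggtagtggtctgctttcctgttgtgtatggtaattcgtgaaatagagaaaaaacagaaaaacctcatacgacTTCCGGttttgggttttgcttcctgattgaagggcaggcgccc
Cdk6 (chr5:3343643-3343942, plus strand): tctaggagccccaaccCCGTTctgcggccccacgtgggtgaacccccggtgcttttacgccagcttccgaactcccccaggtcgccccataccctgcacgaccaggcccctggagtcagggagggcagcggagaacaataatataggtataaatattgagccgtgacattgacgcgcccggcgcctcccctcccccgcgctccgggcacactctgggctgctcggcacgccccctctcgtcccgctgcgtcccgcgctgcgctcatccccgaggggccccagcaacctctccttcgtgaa
Bmi1 (chr2:18676768-18677067, plus strand): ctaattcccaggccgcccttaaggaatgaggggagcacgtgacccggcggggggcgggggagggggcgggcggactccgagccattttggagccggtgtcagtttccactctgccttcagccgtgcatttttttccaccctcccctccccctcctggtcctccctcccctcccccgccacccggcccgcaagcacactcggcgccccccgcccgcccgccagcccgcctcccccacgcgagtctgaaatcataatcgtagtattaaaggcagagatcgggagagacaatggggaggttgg
The Runx1 window held 2 RUNX matches close together just after the start, and 1 MYB match whose letters are also those of an E-box, spelled CANNTG. The Cd48 window held 1 RUNX match, which overlaps an E-box, and 1 ETS match. Cdk6 and Mecom held 1 MYB match each, and the Cd34 and Bmi1 windows held none of these 4 motifs. Of the 10 members, 8 had a RefSeq window, with 12 windows in all, and Ly6a and Lmo2 were not matched. Of the 12 windows, 2 held RUNX letters, 2 ETS, 1 GATA, 4 MYB and 7 an E-box. Of all 32851 promoter windows of this length, 16.8% held the RUNX letters, 14.9% ETS, 11.2% GATA, 28.9% MYB and 72.3% an E-box.

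The libraries held 27124722 to 38645072 counts each, and levels are given as CPM, the count divided by the total of its library or sum and scaled to 1000000. Mt1 measured 41.8 to 87.2 CPM in 8 of the 9 Mt1ko libraries, while the 8 control libraries held 347.5 to 471.3 CPM. The library labelled Mt1ko 6 held 326.2 CPM and went against its label. Mt1ko libraries 10 to 12 stood apart in quality: the mitochondrial ribosomal RNA share was 21.9% to 30.2%, against 4.58% to 11.2% in the other 14 libraries, and 11548 to 13174 genes were detected, against 14823 to 17739. Monocyte and macrophage markers, led by Lyz2 and Itgam, summed to 6591 to 9370 CPM in Mt1ko libraries, against 6927 to 11290 CPM in control libraries, and all 8 averaged at least 10 CPM in control samples. The genes of this list did not all move alike. Mrc1 was at 12.9 CPM in control sample 7-9 and 17.0 CPM in Mt1ko sample 10-12, against 172 to 314 CPM in the other samples. Lyz2 was highest in those samples, at 5939 and 3908 CPM, against 2304 to 3116 CPM. In bulk RNA, fewer cells of a type and less RNA per cell cannot be told apart.

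No member passed the test between Mt1ko and control samples. In edgeR's quasi-likelihood test over 16666 genes, 0 of the 10 members and 0 of all genes (0%) had an adjusted p under 0.05, while 171 genes had an unadjusted p under 0.05, fewer than the 833 that uniform p-values would give. DESeq2, which gave a p-value for 16484 of these genes and none for Mecom, called 1 gene, Mt1, and limma-voom called 0. Mt1 itself averaged 104 ± 60.2 CPM in Mt1ko samples and 401 ± 54.7 CPM in control samples (SD, n = 3 each), with a log2 fold change of −1.85 and an edgeR adjusted p of 1. All 10 members passed the filter on low counts, and the Mt1ko and control ranges overlapped for all 10, where ranges did not overlap for 7.81% of all tested genes (1.32% with Mt1ko higher and 6.49% with Mt1ko lower). With TMM scaling, edgeR's correction for library composition, the ranges of all 10 overlapped too, against 7.10% of tested genes without overlap (2.74% higher and 4.36% lower). The fitted log2 fold change was above 0 for 7 members and below 0 for 3, with a median of 0.15, and it was above 0 for 48.3% of all tested genes, whose median was −0.01.

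Among the surface markers, Cd34 had the widest difference. Its level was 8.40, 65.4 and 4.92 CPM in Mt1ko samples 4-6, 10-12 and 16-18, against 3.93, 7.95 and 9.92 CPM in control samples 1-3, 7-9 and 14-15. Only Mt1ko sample 10-12 was above the control samples, and Mt1ko sample 16-18 lay between the lowest and the middle control sample. On the log2 scale Cd34 had a fold change of 2.11 (SE 0.98, 95% interval −0.17 to 4.39), and the edgeR adjusted p was 1. Without Mt1ko sample 10-12 the log2 fold change was −0.07. By library, Cd34 ran from 3.21 (library 16) to 109.3 CPM (library 11) with a median of 6.62 in the 9 Mt1ko libraries, against 0.567 to 20.1 with a median of 5.21 in the 8 control libraries.

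Ly6a, a lipid-anchored surface protein of mouse stem cells, activated lymphocytes and endothelium, measured 21.1, 49.4 and 33.7 CPM in the Mt1ko samples, against 23.1, 25.1 and 42.7 CPM in the control samples, in the same order of samples as for Cd34. The lowest and the highest of the 6 samples were both Mt1ko. Its log2 fold change was 0.36 (SE 0.39, 95% interval −0.54 to 1.26; edgeR adjusted p = 1), and −0.10 without sample 10-12. Ly6a has close relatives in the Ly6 family, and the labels do not say how reads shared between them were divided. Cd48, a ligand of CD244 that is present on most progenitors and absent from the most primitive stem cells, measured 19.4, 5.31 and 14.4 CPM in the Mt1ko samples, against 16.8, 10.0 and 18.2 CPM in the control samples. The Mt1ko samples again held both the highest and the lowest value. The log2 fold change of Cd48 was −0.12 (SE 0.43, 95% interval −1.12 to 0.88; edgeR adjusted p = 1), and it was 0.21 without sample 10-12.

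The transcription factors divided into abundant and sparse genes. Runx1, the DNA-binding partner of core binding factor beta, measured 145.5, 227.5 and 164.7 CPM in the Mt1ko samples, against 160.9, 188.7 and 171.6 CPM in the control samples. Mt1ko samples held the lowest and the highest Runx1 level, and its fitted log2 ratio was 0.20 (SE 0.23, 95% interval −0.34 to 0.73; edgeR adjusted p = 1). Myb measured 42.2, 20.0 and 29.0 CPM in the Mt1ko samples, against 41.4, 11.8 and 37.3 CPM in the control samples. Mt1ko sample 10-12 was lower in Myb than every sample except control sample 7-9, which was the lowest. Its fitted log2 ratio, Mt1ko over control, was 0.11 (SE 0.45, 95% interval −0.93 to 1.15; edgeR adjusted p = 1). An antisense gene, Gm26577, overlaps 559 exon bases of Myb and had 479 counts, which is 2.90% of the Myb counts. Whether the counting used strand is not stated in the labels.

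Erg, an ETS factor, and Mecom, a zinc finger factor, were near the detection limit in most libraries. Erg measured 0.771, 8.31 and 0.140 CPM in the Mt1ko samples, against 0.296, 2.90 and 0.0467 CPM in the control samples. Mecom measured 0.583, 15.5 and 0.227 CPM in the Mt1ko samples, against 0.116, 1.79 and 0 CPM in the control samples, where 3 counts in control sample 14-15 would be 0.0467 CPM. Samples 10-12 and 7-9 held the highest and the next highest level of both genes, and the 4 other samples were all under 1 CPM. The log2 fold change of Erg was 1.78 (SE 1.72, 95% interval −2.21 to 5.78; edgeR adjusted p = 1), and that of Mecom was 3.37 (SE 2.06, 95% interval −1.40 to 8.15; edgeR adjusted p = 1). Without sample 10-12 these values were −1.18 for Erg and −0.58 for Mecom. Of the 17 libraries, 8 had no Erg count and 7 had no Mecom count.

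Lmo2, Cdk6 and Bmi1 shared one order of samples at the low end. Lmo2 measured 48.9, 11.3 and 40.3 CPM in the Mt1ko samples, against 46.8, 25.6 and 42.4 CPM in the control samples. Bmi1 measured 50.5, 16.5 and 47.5 CPM in the Mt1ko samples, against 49.1, 40.0 and 48.9 CPM in the control samples. Cdk6, the most highly counted member, measured 313.3, 185.8 and 289.8 CPM in the Mt1ko samples, against 311.1, 211.0 and 289.6 CPM in the control samples. In all 3 genes Mt1ko sample 10-12 was the lowest and control sample 7-9 the next lowest, while Mt1ko sample 4-6 was the highest. Their log2 fold changes were −0.12 for Lmo2 (SE 0.45, 95% interval −1.16 to 0.93), 0.06 for Cdk6 (SE 0.20, 95% interval −0.40 to 0.52) and −0.19 for Bmi1 (SE 0.33, 95% interval −0.96 to 0.58), each with an edgeR adjusted p of 1. The fold change of Cdk6 was above 0 although its mean was 263 CPM in Mt1ko samples and 271 CPM in control samples, since edgeR scaled sample 10-12 by a TMM factor of 0.852 and the other 5 samples by 1.00 to 1.05. The interval of Cdk6 ran from 0.757-fold to 1.44-fold, the narrowest of the 10 members, and that of Mecom from 0.378-fold to 285-fold, the widest.

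**Figure D1:**
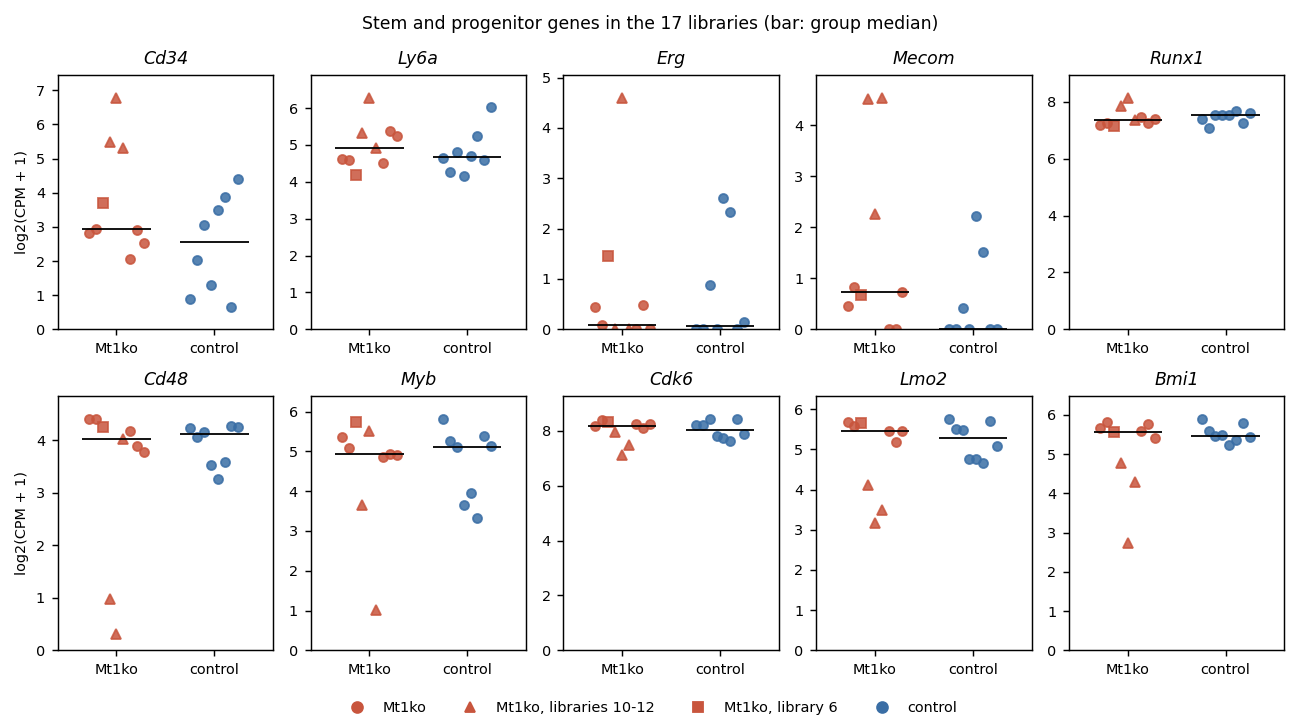
Level of each member in every library, as log2(CPM + 1), with Mt1ko libraries on the left and control libraries on the right of each panel. Triangles are Mt1ko libraries 10 to 12, the square is library 6, and bars are group medians. The triangles lie above all other libraries for Cd34 and Mecom and below all others for Lmo2 and Bmi1, while the remaining Mt1ko points overlap the control points.

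**Figure D2:**
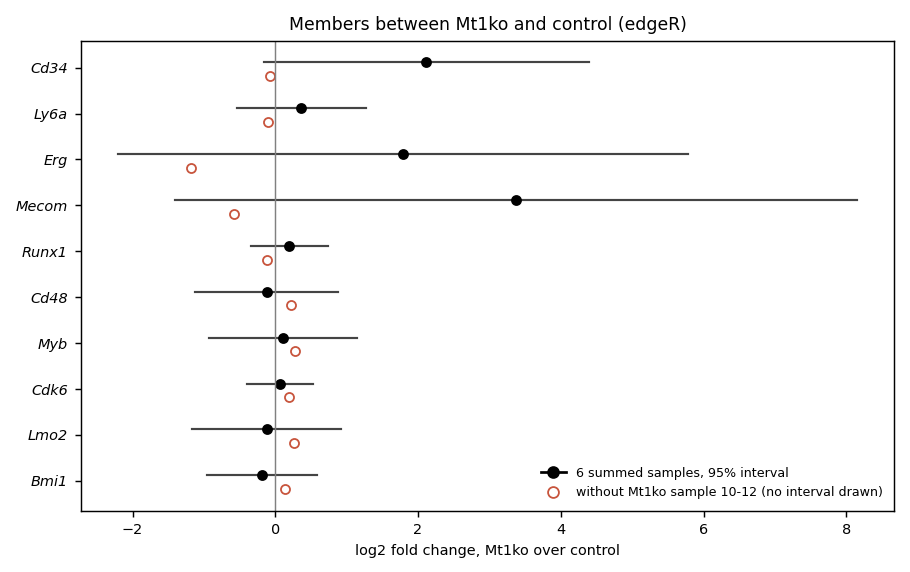
Log2 fold change of each member, Mt1ko over control, from edgeR over 6 summed samples, with its 95% interval (filled points and lines), and without Mt1ko sample 10-12 (open points). All 10 intervals include 0, and the open points lie on the other side of 0 for 8 members, all but Myb and Cdk6.

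Leaving out Mt1ko sample 10-12 turned the sign of 8 of the 10 fold changes. Without it, Cd34, Ly6a, Erg, Mecom and Runx1 were below 0, at −0.07, −0.10, −1.18, −0.58 and −0.12, and Cd48, Myb, Cdk6, Lmo2 and Bmi1 were above 0, at 0.21, 0.28, 0.20, 0.26 and 0.13. Leaving out library 6 together with sample 10-12, a setting chosen after the data had been seen, turned the same number, 8 of 10. The second index sequence of the libraries, which the submitters' descriptions give, had 3 values. Within the first index, 3 Mt1ko libraries, all of sample 4-6, were compared with 5 control libraries. Within the second index, 4 Mt1ko libraries, of which 3 are libraries 10 to 12, were compared with 3 control libraries. Mean log2(CPM + 1) differed in the same direction within both for 3 members, Cd34, Ly6a and Mecom, and in opposite directions for 7. For Cd34 the difference, Mt1ko minus control, was 0.99 within the first index and 1.94 within the second, against 1.37 over all libraries. For Ly6a it was −0.05 and −0.02 within the first and second index, against 0.20 over all libraries. For Cd48 it was 0.50 within the first index and −1.67 within the second, against −0.56 over all libraries. The third index held 2 Mt1ko libraries and no control library.

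Per kilobase of merged exons, which allows levels of different genes to be set side by side, Ly6a was the highest member and Mecom the lowest in both groups. In Mt1ko samples the level was 28.8 ± 11.8 CPM per kilobase for Ly6a, 18.8 ± 4.85 for Cdk6, 15.5 ± 9.09 for Lmo2, 14.9 ± 3.56 for Runx1, 11.0 ± 6.01 for Cd48 and 9.60 ± 4.73 for Bmi1. It was 3.60 ± 4.66 for Cd34, 3.40 ± 1.25 for Myb, 0.887 ± 1.31 for Erg and 0.437 ± 0.701 for Mecom (SD, n = 3). In control samples the level was 25.1 ± 8.93 CPM per kilobase for Ly6a, 19.3 ± 3.77 for Cdk6, 17.7 ± 5.15 for Lmo2, 14.4 ± 1.17 for Runx1, 12.6 ± 3.68 for Cd48 and 11.6 ± 1.31 for Bmi1. It was 3.38 ± 1.79 for Myb, 0.996 ± 0.419 for Cd34, 0.312 ± 0.456 for Erg and 0.0511 ± 0.0806 for Mecom (SD, n = 3). In Mt1ko samples neighbours in this order differed by less than the larger SD of the pair, except for the steps from Bmi1 to Cd34 and from Myb to Erg. The control order was that of the Mt1ko samples except that Myb and Cd34 changed places. Over Mt1ko samples 4-6 and 16-18 alone, Myb was also above Cd34, with means of 3.98 CPM per kilobase for Myb and 0.914 for Cd34. In control samples the neighbours from Ly6a down to Bmi1 each differed by less than the larger SD of the pair, as did Erg and Mecom, while the steps from Bmi1 to Myb, from Myb to Cd34 and from Cd34 to Erg were larger than either SD.

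The members fell into 2 sets that ran against each other across libraries. Cd34, Ly6a, Erg, Mecom and Runx1 formed one set, and Cd48, Myb, Cdk6, Lmo2 and Bmi1 the other. Spearman's rho of log2(CPM + 1) over 17 libraries was positive for all 10 pairs within the Cd34 set (0.29 to 0.75) and for all 10 pairs within the Lmo2 set (0.42 to 0.87). Across the sets it was negative for 24 of 25 pairs, and the exception was Myb with Erg at 0.16. Over the 14 libraries without 10 to 12, all 10 pairs within the Cd34 set (0.18 to 0.83) and all 10 within the Lmo2 set (0.45 to 0.89) were again positive, and all 25 across were negative (−0.75 to −0.05). After the mean of each summed sample was subtracted, the split was weaker. Of 10 pairs in each set, 7 were then positive within the Cd34 set (−0.10 to 0.77). Within the Lmo2 set 7 were positive too (−0.59 to 0.57), with Cd48 and Myb at −0.59. Across the sets 6 of 25 pairs were positive, and 34 of all 45 pairs kept the sign they had over 17 libraries. The sets were drawn from the correlations over 17 libraries and are a description only. Libraries of 1 summed sample are labelled technical replicates, CPM values share a total, and the libraries differ in RNA quality. The 17 points therefore cannot be taken as independent.

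By the rule that rho be at least 0.7 over 17 libraries and at least 0.5 over the 14, 5 of the 45 pairs moved together. Lmo2 was in 3 of them: with Bmi1 at 0.87 (0.77 over 14 libraries), with Cdk6 at 0.80 (0.68) and with Cd48 at 0.79 (0.73). Cd48 also moved with Bmi1 at 0.73 (0.65), and Cd34 with Mecom at 0.75 (0.57). With the sign reversed, 2 pairs met the rule, Cd34 with Bmi1 at −0.77 (−0.59) and Runx1 with Lmo2 at −0.73 (−0.75), and 38 pairs met neither. On CPM of all counts, Ly6a, Myb and Erg were in no such pair. Among the pairs that met neither, Myb and Lmo2 had the highest rho of any pair over the 14 libraries, 0.89, and 0.66 over 17, and Cd34 and Erg had 0.83 over 14 and 0.54 over 17. After the mean of each summed sample was subtracted, rho was 0.77 for Cd34 with Ly6a, 0.72 for Cd34 with Erg and −0.74 for Cd34 with Bmi1, but 0.16 for Cd34 with Mecom, 0.45 for Lmo2 with Bmi1 and 0.07 for Cd48 with Lmo2. On TMM-scaled CPM, 3 pairs met the rule: Lmo2 with Bmi1 at 0.88 (0.78), Cd34 with Mecom at 0.75 (0.57) and Cd34 with Ly6a at 0.71 (0.52). The pairs of Lmo2 with Cdk6, Lmo2 with Cd48 and Cd48 with Bmi1 then fell short, at 0.65, 0.66 and 0.60 over 17 libraries.

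**Figure D3:**
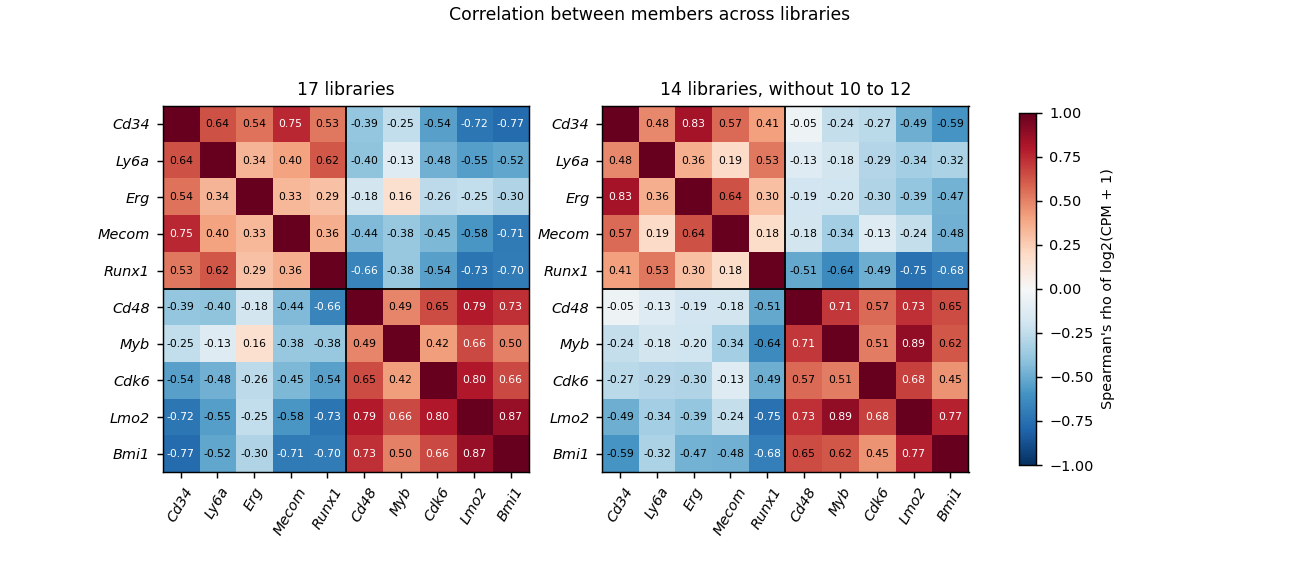
Spearman's rho of log2(CPM + 1) for all pairs of members over 17 libraries (left) and over the 14 libraries without 10 to 12 (right); red is positive and blue negative, and black lines part the 2 sets. Within-set blocks are positive, up to 0.87 for Lmo2 and Bmi1 on the left and 0.89 for Myb and Lmo2 on the right, and the blocks across sets are negative but for Myb and Erg at 0.16 on the left.

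A pair of samples from different groups lay at the ends of this pattern. Mt1ko sample 10-12 and control sample 7-9 were the 2 lowest of the 6 samples in 5 of the 10 members. These were the genes of the Lmo2 set, and 22.4% of all tested genes showed that order. The same samples were the 2 highest in 3 of the 10 members, Erg, Mecom and Runx1, where 11.4% of all tested genes did. On TMM-scaled CPM the same 5 and 3 members kept these places, against 20.1% and 15.6% of all tested genes. The sets were drawn from correlations over libraries of these same samples, so their match with this order is no separate result. Cd34 and Ly6a differed from Erg, Mecom and Runx1 here: control sample 7-9 ranked 4 of 6 in both. In sample 10-12, Mecom was 28.5-fold, Erg 10.0-fold and Cd34 9.31-fold above the mean of the other 5 samples, while Lmo2 was at 0.278 and Cd48 at 0.337 of that mean. Mecom was at most 1.79 CPM and Erg at most 2.90 CPM in those 5 samples, so their ratios rest on low levels.

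The 3 libraries of Mt1ko sample 10-12 differed widely among themselves. Erg had 0, 776 and 0 counts in libraries 10, 11 and 12, so library 11, at 23.3 CPM, was at least 233-fold higher than library 10, taking 3 counts in that library as the limit. Mecom had the opposite order, with 653, 127 and 665 counts. Myb had 350, 1486 and 31 counts, a 43.1-fold range in CPM, and Cd48 had 29, 8 and 459 counts, a 63.8-fold range. Library 11 was the highest of the 3 in Cd34, Ly6a, Erg, Runx1 and Myb and the lowest in Mecom, Cd48, Cdk6, Lmo2 and Bmi1. Library 12, with almost no Myb, held as much Cd48 as the other Mt1ko and control samples, at 15.3 CPM. These libraries are labelled technical replicates, and for Myb the variance between them was 825 times that of counting error. The cause of the spread was not tested.

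Some members were tight in other samples. Myb spread 1.06-fold over libraries 16 to 18, Runx1 1.11-fold over control libraries 7 to 9, and Cd48 1.01-fold over control libraries 14 and 15. Cd34 spread more widely in each control sample than in any Mt1ko sample: 2.84-fold at most in Mt1ko samples (10-12), against 8.44-fold in control sample 1-3, 9.24-fold in 7-9 and 35.5-fold in 14-15, where libraries 14 and 15 held 19 and 618 counts. Ly6a differed 2.78-fold between libraries 14 and 15. In control sample 7-9, Erg had 0, 175 and 110 counts and Mecom 0, 126 and 50 counts in libraries 7, 8 and 9. For Lmo2 and Mecom, the range of log2(CPM + 1) within a sum never exceeded the range between the 6 sums. For 7 other members it did so in 1 sum and for Ly6a in 2. The highest range within a sum was in sample 10-12 for 8 members and in control sample 14-15 for Cd34 and Ly6a.

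**Figure D4:**
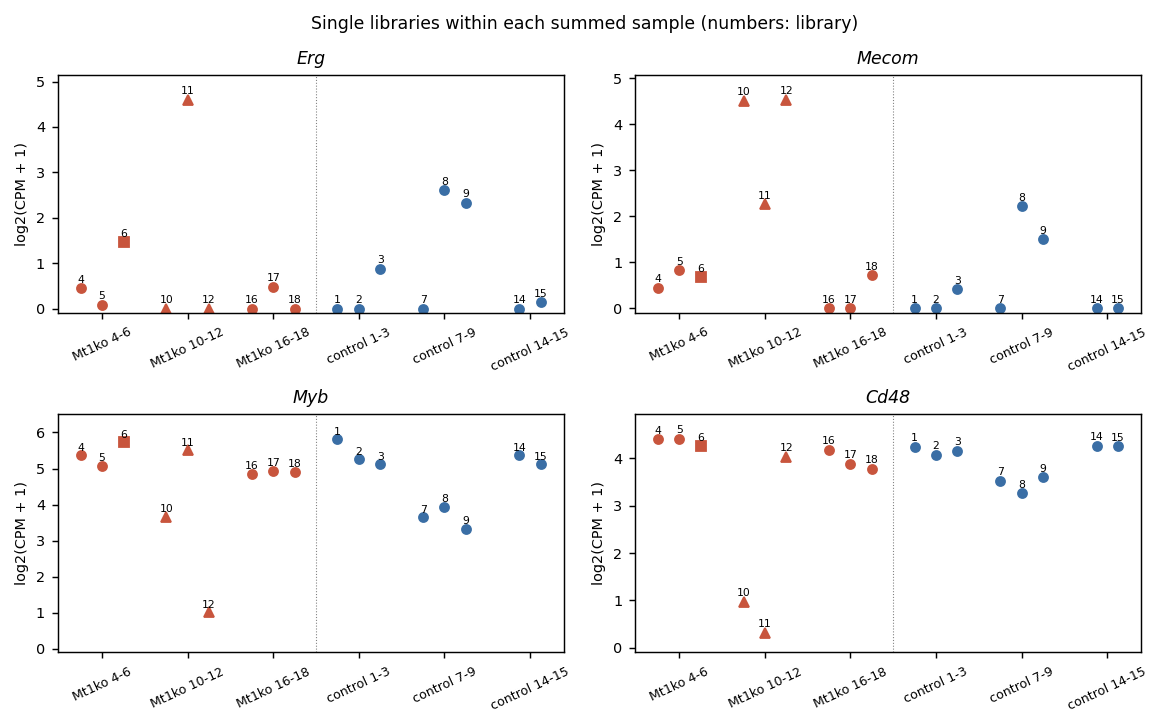
Single libraries of each summed sample for Erg, Mecom, Myb and Cd48, as log2(CPM + 1), Mt1ko samples on the left and control samples on the right; numbers are libraries. Library 11 is the only one of 10 to 12 with Erg and library 12 the only one of them with Cd48 near the level of other samples, whereas Myb is lowest in library 12.

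Markers of other cell types moved with several members. The mast cell and basophil list of 10 genes, led by Tpsb2 and Cpa3, summed to 39.1 to 7008 CPM in Mt1ko libraries, against 7.19 to 2207 CPM in control libraries. Prss34 of this list was at 0 in every library, and Kit and Gata2 are also genes of stem and progenitor cells. The list did not move as one. The 7 genes that averaged at least 10 CPM in control samples were all highest in Mt1ko sample 10-12. Mcpt8 was at 0 in that sample and highest in control sample 7-9, at 0.305 CPM. Hdc ran from 0.065 CPM in sample 16-18 to 0.771 CPM in sample 4-6, with 0.214 CPM in sample 10-12. The sum of the list was 2758 to 7008 CPM in libraries 10 to 12, against 7.19 to 2207 CPM in the other 14. Cd34 followed this sum with a rho of 0.98 over 17 libraries, 0.97 over the 14 and 0.95 after sample means were subtracted, which was closer than its rho with any other member. Mt1ko library 11, with 1990 CPM of Cpa3, had the highest Cd34 level of all libraries, and control library 14, with 0.209 CPM of Cpa3, had the lowest, 0.567 CPM. The rho of the list over 17 and 14 libraries was 0.66 and 0.53 for Ly6a, 0.57 and 0.88 for Erg, 0.76 and 0.58 for Mecom, and 0.52 and 0.43 for Runx1. It was −0.75 and −0.55 for Lmo2, −0.80 and −0.64 for Bmi1, −0.62 and −0.39 for Cdk6, −0.45 and −0.18 for Cd48, and −0.29 and −0.28 for Myb. The part of these cells in the members' levels was not tested.

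**Figure D5:**
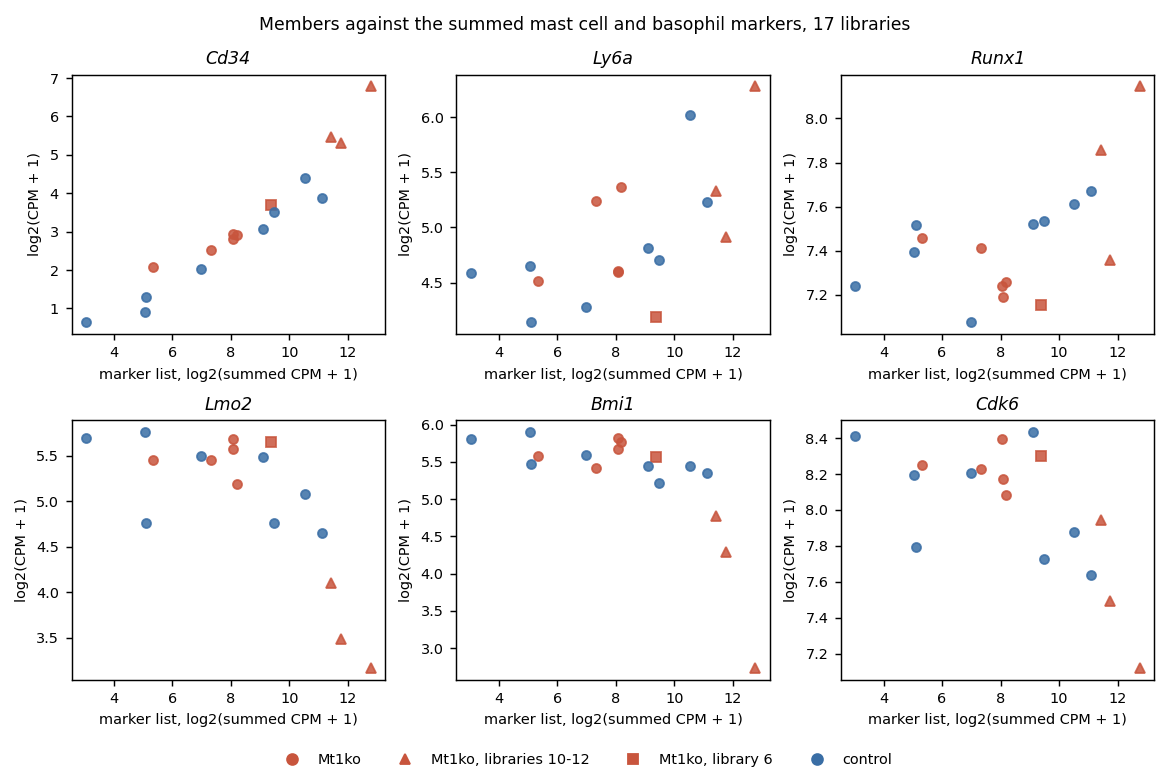
Level of 6 members against the sum of the 10 mast cell and basophil markers, both as log2 of CPM plus 1, in 17 libraries; triangles are Mt1ko libraries 10 to 12, the square is library 6 and blue points are control libraries. Cd34 increases along one line with a rho of 0.98, the points of Ly6a and Runx1 scatter, and Lmo2, Bmi1 and Cdk6 are lowest at the right end.

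The sum of the neutrophil list, led by Elane and Prtn3, moved with the other set. It was 9.15 to 178 CPM in Mt1ko libraries, against 18.7 to 196 CPM in control libraries, with Camp at 0 in every library. Other genes of the list differed. Mpo was highest in control sample 7-9, at 6.14 CPM, where Elane was at 7.06 CPM. S100a8 ran from 8.71 to 17.6 CPM over the 6 samples, and Ltf and Ngp were at most 0.0934 CPM outside Mt1ko sample 4-6. The rho of the sum over 17 and 14 libraries was 0.86 and 0.79 for Lmo2, 0.68 and 0.93 for Myb, and 0.77 and 0.70 for Cd48. After sample means were subtracted it was 0.29 for Lmo2, −0.03 for Myb and 0.23 for Cd48. Endothelium also expresses Cd34, Ly6a and Erg, and of its 8 markers Cdh5, Tek, Emcn and Cldn5 were at 0 in every library. The list's sum was 15.6 to 114 CPM in Mt1ko libraries, against 11.3 to 55.9 CPM in control libraries, made up mostly of Pecam1, and had a rho of 0.87 with Cd34. The B cell list summed to at most 1.92 CPM in Mt1ko libraries, against at most 0.758 CPM in control libraries, with Ms4a1, Pax5 and Igll1 at 0. The T and NK cell list had Cd4 and Nkg7 at 0 and was almost wholly Il7r, at 34.0 to 95.2 CPM. The megakaryocyte and platelet list, led by Pf4 and Itga2b and with Gp9 at 0, summed to 197.6 to 366.4 CPM in Mt1ko libraries, against 79.6 to 218.4 CPM in control libraries. Its rho with Cd34 was 0.39 over 17 libraries, 0.18 over the 14 and 0.77 after sample means were subtracted. With Ly6a these values were 0.45, 0.31 and 0.78. Its genes did not move as one: in Mt1ko sample 10-12 Pf4 was at 26.8 CPM, the lowest of the 6 samples, and Itga2b at 156.7 CPM, the highest. The erythroid list, led by Tfrc and with Epor at 0, had a rho over 17 libraries of −0.75 with Cd48 and −0.71 with Myb. After sample means were subtracted these values were 0.42 and −0.42. Tfrc, at 49.1 to 96.5 CPM over the 6 samples, made up most of this list, whose other genes did not move alike. Hba-a1 was highest in control sample 7-9, at 10.3 CPM, and at 0 in Mt1ko sample 10-12. Klf1 was highest in Mt1ko sample 10-12, at 2.75 CPM. The stromal list summed to at most 2.93 CPM in Mt1ko libraries, against at most 7.05 CPM in control libraries. The share of mitochondrial ribosomal RNA had a rho of 0.65 with Cd34, −0.78 with Lmo2 and −0.78 with Bmi1 over 17 libraries, and of 0.40, −0.62 and −0.61 over the 14. Its sign followed the 2 sets for all 10 members. Over 17 libraries it was 0.14 to 0.65 in the Cd34 set and −0.78 to −0.42 in the Lmo2 set. Over the 14 it was 0.16 to 0.54 and −0.62 to −0.40. The part of this share in these levels was not tested.

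The genes whose pattern was most like that of each member were sought among 10203 genes by rho over 17 libraries, with rho over the 14 beside it. Cd34 was followed most closely by Cpa3, a mast cell protease, at 0.99 (0.98), and by Scin, an actin-severing protein, at 0.99 (0.97). Myb was nearest to Gapt at 0.91 (0.89) and to Mki67, a marker of dividing cells, at 0.90 (0.92). Cdk6 was nearest to Etv6, an ETS repressor, at 0.92 (0.91), and to Tbc1d2b at 0.91 (0.92). Lmo2 was nearest to Edem1, which acts in the disposal of misfolded glycoproteins, at 0.96 (0.93), and to Rps29, a ribosomal protein, at 0.96 (0.93). Bmi1 was nearest to Ifngr1, a chain of the interferon gamma receptor, at 0.96 (0.94), and to Sorl1, a sorting receptor, at 0.94 (0.93). The nearest genes of Cd48 were Azin1 at 0.91 (0.85) and Gbp7 at 0.89 (0.83), and those of Runx1 were Ces2b at 0.91 (0.90) and Dnhd1 at 0.91 (0.87). The sparse or scattered members had weaker neighbours: Rprm at 0.85 (0.83) and Atad5 at 0.81 (0.73) for Erg, Col18a1 at 0.84 (0.73) and Atp8b5 at 0.84 (0.74) for Mecom, and Rgs1 at 0.81 (0.77) and Neb at 0.78 (0.71) for Ly6a.

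No gene of the 6 lists of partners and relatives passed the test. Of the partners of the stem cell transcription factors, 18 of 20 were tested, with 9 fold changes above 0 and 9 below and a median log2 fold change of −0.01, equal to that of all genes. The most abundant were Spi1 (PU.1), at 124 ± 31.0 CPM in Mt1ko samples and 132 ± 9.11 CPM in control samples, Fli1, Etv6 and Cebpa. Of the other stem and progenitor markers, 21 of 30 were tested, with 14 above 0 and 7 below and a median of 0.23. Among them Hoxa9, a homeobox gene often active in leukaemia with mutant nucleophosmin, averaged 75.5 ± 20.6 CPM in Mt1ko samples and 63.0 ± 8.68 CPM in control samples. Kit, a receptor tyrosine kinase of progenitors and mast cells, measured 30.3, 252.9 and 14.3 CPM in Mt1ko samples 4-6, 10-12 and 16-18, against 18.4, 61.6 and 42.9 CPM in control samples 1-3, 7-9 and 14-15. Only Mt1ko sample 10-12, in which the mast cell and basophil sum was also highest, lay above the control samples. Cd27, Prdm16, Tek, Hoxb5 and Mycl were at 0 in every sample.

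Of the cyclins, inhibitors and targets around CDK6, 17 of 18 were tested, 11 above 0 and 6 below, with a median of 0.08; Cdkn1a, an inhibitor of the cell cycle, was the highest of them, at 364 ± 53.0 CPM in Mt1ko samples and 419 ± 38.5 CPM in control samples. Of the MYB partners and targets, 15 of 15 were tested, 6 above 0 and 9 below, with a median of −0.09, led by the coactivators Ep300 and Crebbp. Of the Polycomb partners and paralogs of BMI1, 20 of 20 were tested, 11 above 0 and 9 below, with a median of 0.05, led by Phc3, Phc2, Suz12 and Pcgf3. Of the relatives of the surface members, 12 of 18 were tested, 6 above 0 and 6 below, with a median of 0.00, with Ly6c2, Selplg and Cd84 among the most abundant. Of these, Ly6c2, a monocyte surface protein of the Ly6a family, had a rho of 0.89 with Lmo2 and −0.48 with Cd34, so Ly6a, in the Cd34 set, and Ly6c2 lay on different sides.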

How the data were processed

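Per the labels' protocols, marrow RNA was extracted on RNeasy Micro columns, treated with DNase and made into libraries with a stranded SMARTer Pico v2 total RNA kit. Trimmomatic 0.35, RSEM 1.3.3 and the builds GRCm38 and mm10 were used, per the submitters' processing notes; how they were set is not stated. The deposited values are raw whole-number counts by gene for 17 libraries, with a table of 6 summed columns that equalled the sums of the named libraries in every gene (0 genes differed). Of 56305 identifiers, 55141 matched GENCODE vM21 (GRCm38), which gave exon lengths. The second index sequence was read from the submitters' descriptions.

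The 10 members, the gene lists and the tests were chosen with earlier results of these data known. Counts of 3 Mt1ko and 3 control sums entered edgeR 4.0.16 (R 4.3.3) after filterByExpr and TMM scaling, in a quasi-likelihood F test with group only, with Benjamini-Hochberg adjustment over 16666 genes and a threshold of 0.05. SE is the log2 fold change over the root of F. The test was tested on simulated data. Correlations are Spearman's rho of log2(CPM + 1) without p, in scipy 1.17.1. Limits for a count of 0 are 3 counts, cover counting error only; PCR duplicates were not separable. Named genes were the members, Mt1, the 2 nearest genes of each member, the up to 4 highest genes of each list and the 2 highest of each cell type list with defining markers at 0; other marker or list genes were named after their values were seen. Some genes that this rule covers are not reported here. Alternatives were other scaling, filters, tools (DESeq2 1.42.0, limma-voom 3.58.1), units, left-out samples and the index sequence. Promoters came from RefSeq (GRCm38.p6).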

Additional observations from a re-analysis of the deposited data

Results flagged for a closer look

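Within the 2 groups of libraries, 22 sets of values (11 genes, Mt1 included, in each group) were examined for a highest or lowest library far from the rest. Of these sets, 5 stood out. The cutoffs give about 1 in 20 by chance only for independent, normally spread values. Libraries of 1 sum are labelled technical replicates and the CPM values are skewed, so that rate does not apply and 5 cannot be called an excess. Mt1ko library 11 was far above the other Mt1ko libraries in 3 members: Cd34 at 109.3 CPM (next 43.5 CPM), Ly6a at 76.7 CPM (next 40.3 CPM) and Erg at 23.3 CPM (next 1.76 CPM). Control library 15 was far above the other control libraries in Ly6a, at 64.1 CPM (next 36.6 CPM). The library labelled Mt1ko 6 was far above the other Mt1ko libraries in Mt1, at 326.2 CPM (next 87.2 CPM). Both libraries 11 and 15 were the highest of their summed sample in the mast cell and basophil sum, at 7008 CPM in library 11 and 1473 CPM in library 15. The cause was not tested.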

How the results depend on the processing

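No gene was called in the 6 summed samples, and 1 gene, Mt1, was called with the 17 libraries entered singly, with DESeq2, with library 6 left out, and, chosen after the data were seen, with library 6 and sample 10-12 left out; leaving out each summed sample gave 0 to 0 calls. No member was called under any of these settings. Under the other scaling, filters, units and tools, and with library 6 or the mitochondrially encoded genes left out, 86 of 86 fitted fold changes of the members kept their sign, and none was called; Mecom had no adjusted p in DESeq2. The mean log2 difference over libraries had another sign within the first index than over all libraries for 8 of 10 members, and within the second for 1, each a move of less than 1 SD between libraries. Leaving out each sample turned the sign in 14 of 60 values. The log2 fold change then ranged from −0.075 to 2.61 for Cd34, −0.10 to 0.68 for Ly6a, −0.51 to 0.21 for Cd48, −0.28 to 0.42 for Myb, −0.092 to 0.20 for Cdk6, −1.18 to 4.41 for Erg, −0.58 to 6.72 for Mecom, −0.12 to 0.36 for Runx1, −0.48 to 0.26 for Lmo2 and −0.43 to 0.13 for Bmi1. Leaving out library 6 and sample 10-12 gave −0.31 for Cd34, −0.042 for Ly6a, 0.25 for Cd48, −2.57 for Erg, −0.60 for Mecom, −0.11 for Runx1, 0.26 for Lmo2 and 0.17 for Bmi1. Pairs that moved together numbered 5 in the main setting, and 6 with Pearson in place of Spearman correlation. Without libraries 10 to 12, 5 pairs reached a rho of 0.7. Of these, Lmo2 with Bmi1 and Cd48 with Lmo2 were also in the main setting. Myb with Lmo2, Cd34 with Erg and Cd48 with Myb were not. With sample means subtracted, 2 pairs reached a rho of 0.7, Cd34 with Ly6a and Cd34 with Erg. Neither was among the 5 pairs of the main setting, whose rho was then 0.07 to 0.57. On TMM-scaled CPM 3 pairs met the rule, and Cd34 with Ly6a was new among them. Erg could not be tested over single libraries, nor Erg and Mecom under the stricter filter. The cause was not tested. No paired analysis was possible because the replicate numbers are not shared between the groups. Erg and Mecom had the widest intervals, with no count in 8 and 7 of the 17 libraries.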

Other observations

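Among the partners of the stem cell transcription factors, Tal1 and Gata2 followed Cd34, with a rho over 17 libraries of 0.91 for Tal1 and 0.97 for Gata2. Gata2 measured 109.5 CPM in Mt1ko sample 10-12, against 5.19 to 24.9 CPM in the other 5 samples, and Tal1 measured 31.4 CPM, against 1.16 to 5.29 CPM. Spi1, Etv6 and Runx2 followed Lmo2 instead, at 0.80, 0.86 and 0.82. The D-type cyclins, which bind CDK6, also divided: Ccnd2 had a rho of 0.93 with Cd34 and −0.62 with Lmo2, and Ccnd3 had −0.59 with Cd34 and 0.81 with Lmo2. Ccnd2 measured 216 CPM in Mt1ko sample 10-12, against 10.6 to 58.4 CPM in the other 5 samples, and Ccnd3 measured 42.5 CPM, against 46.2 to 121.5 CPM. Gata2 is also in the mast cell and basophil list, whose sum Cd34 followed at 0.98, and libraries 10 to 12 also had the highest shares of mitochondrial ribosomal RNA. Their part in these values was not tested. These genes were named after their values had been seen, and libraries of 1 sample are labelled technical replicates.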
